A study of Danio rerio with 6 samples.

Results

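Expression of target genes of the transcription factor p53 was examined in zebrafish larvae that had been irradiated as embryos. The genes are represented by 9 of the 37157 targets on the array, a target being the transcript that a set of probes was designed against, and they stand for 8 genes because mdm2 has 2 targets. Of the 9 targets, 6 were chosen by their ratio between treatments in the study's own analysis of these pools, and carry the name of a p53 target gene in the supplementary gene tables of the study (mdm2 with targets OTTDART00000027213 and OTTDART00000027215, phlda3 with ZV700S00000355, rps27l with ZV700S00006205, ccng1 with ZV700S00000580 and ercc5 with NM_001014315). The other 3 were found through their RefSeq mRNA identifiers (sesn2 with NM_001079975, pmaip1 with NM_001045474 and ei24 with NM_001017898) and are absent from those tables. The tables list targets that differed between the same pools of larvae. For the 6 targets the contrast between treatments is therefore given as a description without a test, and only sesn2, pmaip1 and ei24 were tested. Their absence from the tables means that they had not met the study's thresholds on these same pools. That they missed the same thresholds by the study's own test was therefore largely fixed in advance. By the test used here it was less so, because most of the targets it called are not listed by the study. The name ercc5 rests on the study's table alone, because its accession was not matched to a current zebrafish symbol.

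All larvae were of the wild-type AB strain, with no mutation or transgene in either treatment. In the 5 Gy treatment, 3 pools of 50 embryos received a single gamma dose from a cobalt source at 26 h post fertilization (hpf). In the control treatment, labelled 0 Gy, 3 pools of 50 embryos were placed in the irradiator without a dose at the same age. RNA was extracted from whole larvae at 120 hpf, each pool was hybridised to its own one-colour array, and the 3 biological replicates of a treatment came from separate clutches. Because whole larvae were pooled, fewer cells of a type and less RNA per cell cannot be told apart in any of the values.

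The tumour suppressor p53 is stabilised after DNA damage and switches on genes that hold the cell cycle, assist repair, lower growth signalling or start apoptosis. It also switches on its own inhibitors, foremost mdm2, a ubiquitin ligase that marks p53 for degradation, which closes a feedback loop. In zebrafish embryos, as in mammals, radiation is a classical trigger of this response. The arrays were read days after the dose, when the larvae had hatched and most organs had formed.

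Intensities were very similar in their distribution over the 6 arrays, with medians between 355 and 357. Target values are given as log2 intensity after the probes of a target were combined, and the ratio is the mean log2 value of the 5 Gy pools minus that of the control pools. A target was called altered at an unadjusted p under 0.05 in limma with a change of at least 1.5-fold in either direction. The thresholds are those of the study, which applied them with a different test (the methods' t-test) in place of limma. At these thresholds 1500 targets (4.04%) were called, 426 (1.15%) higher and 1074 (2.89%) lower at 5 Gy, and none passed an adjusted p of 0.05. Over all targets, 5 Gy replicate 3 and 0 Gy replicate 3 resembled each other most (Pearson r = 0.987 across targets). 0 Gy replicate 3 stood apart from the other control pools (r = 0.897 and 0.905, against 0.977 between those control pools). It was closer to every 5 Gy pool than to either of them, with r = 0.957 for 5 Gy replicate 1 and 0.915 for 5 Gy replicate 2. Results for the p53 targets and pathway genes that depend on 0 Gy replicate 3 are therefore given with and without it.

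All 6 targets from the study's tables had higher values at 5 Gy, with ratios between 0.65 and 1.02 and a median of 0.83, and in each of them every 5 Gy pool lay above every control pool, beside a background of 2.78% of all targets, which likewise restates how they were chosen. For sesn2, pmaip1 and ei24 the ratios lay between -0.07 and 0.19 with a median of 0.12, and the pools of the treatments overlapped in all 3. The 6 targets also all met the thresholds for a higher call (background 1.15% of targets), and nothing is read from that count for the same reason. Of sesn2, pmaip1 and ei24, 0 of 3 met the thresholds in either direction. Their absence from the study's tables largely fixed this for the methods' t-test. It did so less for limma, where 492 of the 1500 called targets are listed by the study. Beside a background of 4.04% of targets, a count of 0 of 3 says little.

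**Figure D1:**
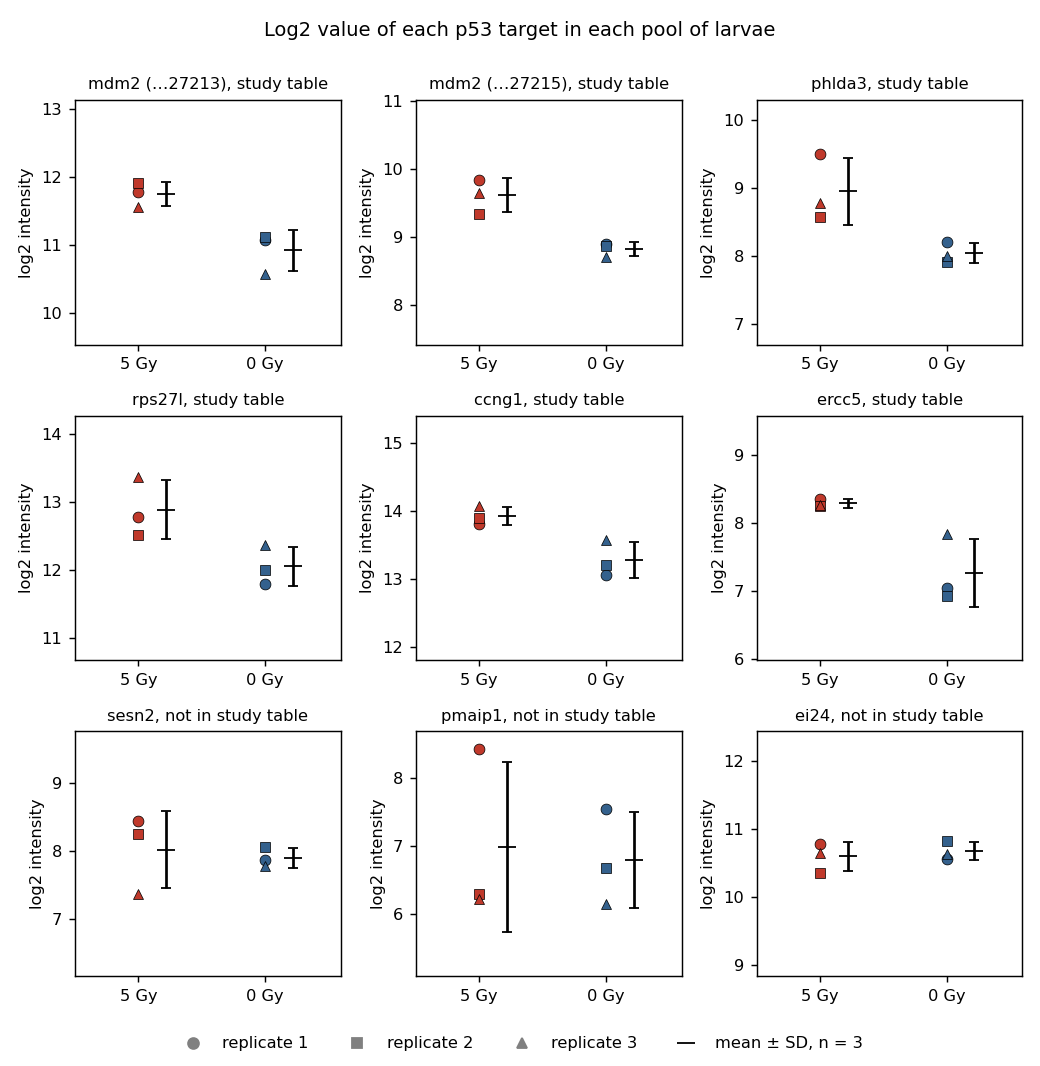
Log2 intensity of each of the 9 p53 targets (vertical axes, same span of log2 units in every panel) in the 3 pools at 5 Gy (red) and the 3 control pools at 0 Gy (blue), with symbols for the replicate number and bars for the mean ± SD (n = 3). The red points lie above all blue points in the 6 panels of targets from the study's tables and overlap with them for sesn2, pmaip1 and ei24.

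Among the genes of the feedback on p53, the mdm2 target OTTDART00000027213 had log2 intensities of 11.78, 11.91 and 11.57 at 5 Gy and 11.07, 11.12 and 10.58 in controls. The lowest 5 Gy pool, replicate 3, exceeded the highest control pool by 0.45, and the control pool of the same number was the lowest of all. The means were 11.75 ± 0.174 at 5 Gy and 10.92 ± 0.297 in controls (SD, n = 3 each), a ratio of 0.83 with a standard error (SE) of 0.285, or 1.78-fold. Without 0 Gy replicate 3 the ratio was 0.66 and missed the thresholds.

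The other mdm2 target, OTTDART00000027215, had values of 9.85, 9.35 and 9.66 at 5 Gy and 8.90, 8.87 and 8.71 in controls. Its control pools were close together and its 5 Gy pools were again all higher, with replicate 2 the lowest of them. The ratio was 0.79 (SE 0.272), or 1.73-fold, and without 5 Gy replicate 3 it was 0.77 and was not called. The ratios of the mdm2 targets thus differed by much less than the SE of either. Both targets were selected by this contrast and measured on the same arrays, so nothing is read from that closeness. Within treatments their pools did not deviate together (r = 0.08 after treatment means were removed, across 6 pools).

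phlda3 encodes a protein with a pleckstrin homology domain that is known in mammals to hold back Akt, a kinase of survival signalling. Its values were 9.51, 8.58 and 8.78 at 5 Gy and 8.21, 7.92 and 8.005 in controls. Replicate 1 at 5 Gy stood well above the other pools, and the lowest 5 Gy pool exceeded the highest control pool by 0.37. The ratio was 0.91 (SE 0.323), and it was not called without 5 Gy replicate 1 (0.63) or without 0 Gy replicate 2 (0.85).

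rps27l encodes a ribosomal protein related to S27 that binds Mdm2 in human cells. It had 12.77, 12.51 and 13.36 at 5 Gy against 11.79, 11.99 and 12.36 in controls. The pools were separated by 0.15, the smallest gap among the 6 targets, with replicate 3 the highest pool of both treatments. The ratio was 0.84 (SE 0.327), or 1.79-fold. It was not called without 5 Gy replicate 1 (0.89), 5 Gy replicate 3 (0.60), 0 Gy replicate 1 (0.71) or 0 Gy replicate 2 (0.81). With all 6 pools it narrowly missed the thresholds by the methods' t-test, although the study lists it.

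The single member with a role in the cell cycle was ccng1, cyclin G1, which in mammals directs a phosphatase to Mdm2 and can slow growth. Its log2 intensities were 13.81, 13.90 and 14.08 at 5 Gy and 13.06, 13.20 and 13.58 in controls. Replicate 3 was the highest in both treatments and the gap between treatments was 0.23. Of the 6 targets it had the smallest ratio, 0.65 (SE 0.277), or 1.57-fold, just above the threshold of 1.5-fold. When the replicate number was added to the model as a block, ccng1 no longer met the thresholds while the other 5 did, beside a background of 3.61% of targets called higher in that model. Its call held without 0 Gy replicate 3 but was lost when any other single pool was left out, with ratios between 0.54 and 0.71.

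ercc5 encodes an endonuclease that cuts damaged strands in nucleotide excision repair. Its values were 8.36, 8.25 and 8.27 at 5 Gy and 7.05, 6.93 and 7.85 in controls. The 5 Gy pools were nearly level, with an SD of 0.0607, while 0 Gy replicate 3 stood well above the other control pools and closest to the 5 Gy pools. The ratio of 1.02 (SE 0.321), or 2.02-fold, was the largest among the 9 targets, and without 0 Gy replicate 3 it was 1.30. It was not called without 0 Gy replicate 1 (0.90) or 0 Gy replicate 2 (0.84).

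**Figure D2:**
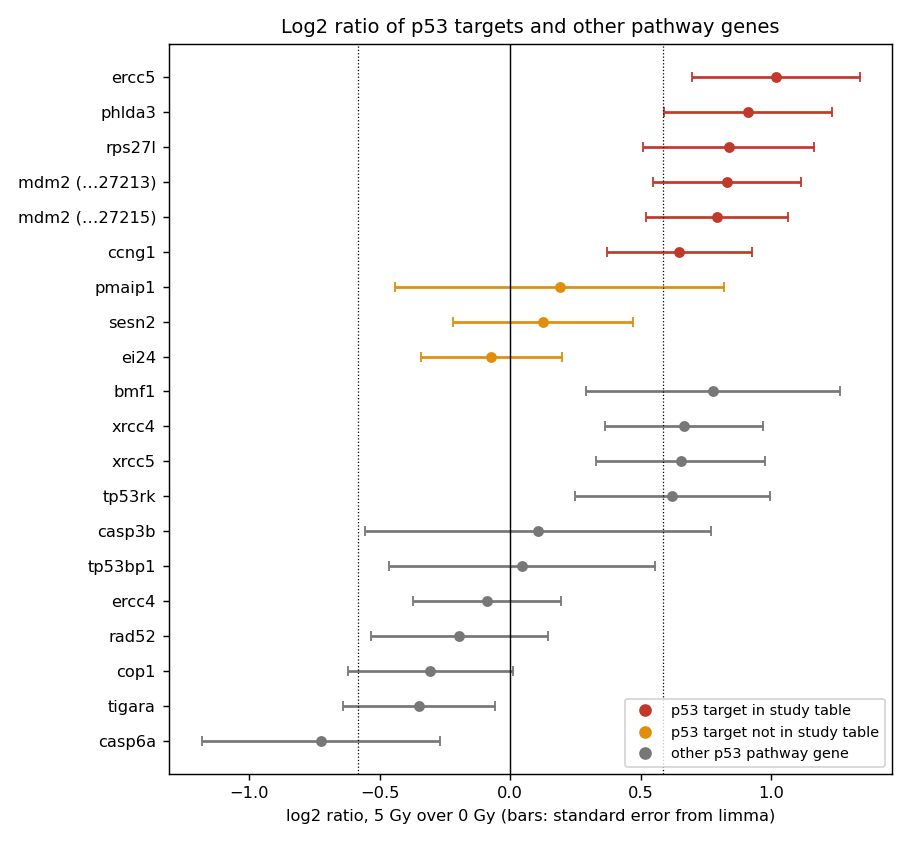
Log2 ratio of 5 Gy to 0 Gy (horizontal axis) for the 9 p53 targets and the 11 other genes of the pathway lists that were matched by symbol, with bars for the standard error of the limma model and dotted lines at a 1.5-fold change. The 6 targets from the study's tables lie between 0.65 and 1.02, sesn2, pmaip1 and ei24 between -0.07 and 0.19, and the other pathway genes between -0.73 and 0.78.

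The targets that the study's tables do not hold were near 0. sesn2 encodes a sestrin, a stress protein that restrains the growth kinase complex mTORC1. It had 8.45, 8.25 and 7.38 at 5 Gy and 7.87, 8.06 and 7.78 in controls. The 5 Gy pools lay on both sides of the controls, with replicates 1 and 2 above and replicate 3 below every control pool. The ratio was 0.12 (95% confidence interval -0.66 to 0.91, limma adjusted p = 0.960) and the exact two-sided permutation test gave p = 0.9, where 0.1 is the smallest that 3 pools against 3 can give.

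pmaip1 encodes Noxa, a protein of the BH3-only family that promotes apoptosis. Its values were 8.42, 6.29 and 6.23 at 5 Gy and 7.55, 6.68 and 6.15 in controls. Replicate 1 was the highest pool of both treatments, and 4 of the 6 pools lay below 6.97, the limit of the dimmest 25% of targets. The ratio was 0.19 (95% confidence interval -1.26 to 1.64, limma adjusted p = 0.969, exact permutation p = 0.8), and with the replicate block the interval narrowed to -0.57 to 0.95.

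ei24 encodes a membrane protein of the endoplasmic reticulum that was first found as a p53-induced gene in mouse cells. It had 10.78, 10.35 and 10.65 at 5 Gy and 10.55, 10.81 and 10.63 in controls. The pools were intermixed, with the lowest value in a 5 Gy pool and the highest in a control pool. The ratio was -0.07 (95% confidence interval -0.69 to 0.55, limma adjusted p = 0.973, exact permutation p = 0.7). Each of the 3 intervals included a 1.5-fold change in at least 1 direction, so a change of that size was left undetermined at 3 pools a treatment.

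The single probes come from the same hybridisations and the same contrast as the selection, so their counts describe the targets and test nothing. Of the 72 probes of the 6 targets from the study's tables, 70 had a higher mean at 5 Gy, and of the 35 probes of sesn2, pmaip1 and ei24, 21 had. All 12 probes were higher for both mdm2 targets, ccng1 and ercc5, and 11 of 12 for phlda3 and rps27l. In contrast, 7 of 11 probes were higher for sesn2, 8 of 12 for pmaip1 and 6 of 12 for ei24.

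The probes of a target differed in how evenly they showed the difference. For the mdm2 target OTTDART00000027213 the probe ratios ran between 0.59 and 1.09, and 9 of its probes had every 5 Gy pool above every control pool. For OTTDART00000027215 they ran between 0.06 and 2.16, with 8 such probes. The phlda3 probes were the least even of the 6, between -0.45 and 1.77, and 1 probe separated the treatments fully. For ercc5 the range was 0.52 to 1.82, with 6 such probes, and ccng1 and rps27l also had 6 each. The share of such probes over the whole array is not given here, so these counts have no background beside them.

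Among the other 3 targets, no probe separated the treatments in this direction. The sesn2 probes ran between -1.75 and 1.85, and both extremes came from single spots on the array of 0 Gy replicate 1. There, 1 probe was at 11.80 while its values in the other pools ran between 6.96 and 8.42, and another was at 4.78 while the other pools ran between 9.71 and 10.37. The pmaip1 probes, between -0.53 and 0.92, moved together from pool to pool (median correlation between probes 0.75, percentile 89.3 among targets with at least 11 probes), so its spread between pools was shared by its probes. The numbers in the names of these probes lie close together. If they are start positions, most of the probes overlap, and the correlation is not one between separate probes. For sesn2 that correlation was 0.15 and for ei24 0.28, against a median of 0.39 over such targets.

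**Figure D3:**
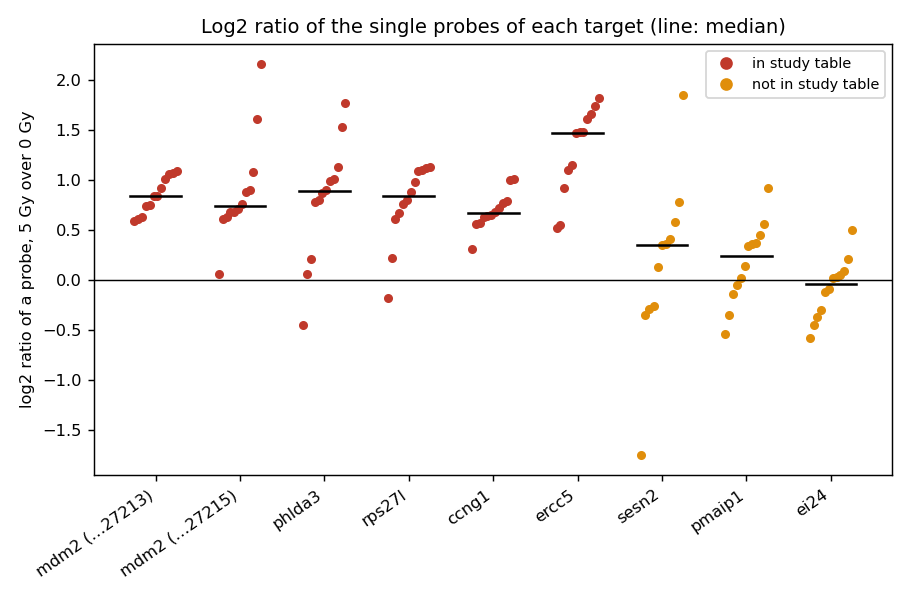
Log2 ratio of 5 Gy to 0 Gy of every probe (points, vertical axis) for each of the 9 p53 targets, with a line at the median of a target, red for targets from the study's tables and orange for sesn2, pmaip1 and ei24. Of the points, 70 of 72 lie above 0 for the study's targets and 21 of 35 for the other targets.

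Pools with the same replicate number were next compared in pairs, a pairing that is assumed from the numbers. In pair 1 the differences, 5 Gy minus 0 Gy, were 0.71 and 0.95 for the mdm2 targets, 1.30 for phlda3, 0.98 for rps27l, 0.75 for ccng1 and 1.32 for ercc5. In pair 2 they were 0.79, 0.48, 0.66, 0.52, 0.70 and 1.32 in the same order of genes. In pair 3 they were 0.98, 0.95, 0.77, 1.00, 0.50 and 0.41. All 6 targets were thus higher in all 3 pairs, which held for 12.9% of all targets. These differences come from the contrast by which the 6 targets were selected.

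The pairs carried different backgrounds. The SD of the differences over all targets was 0.820 in pair 1, 0.887 in pair 2 and 0.335 in pair 3, and the 5 Gy pool was at least 1.5-fold higher in 20.5%, 18.2% and 3.44% of targets. Pair 3 joins the pools that resembled each other most (r = 0.987 across targets). It includes 0 Gy replicate 3, which stood apart from the other control pools. In the narrow background of pair 3, both mdm2 targets were at percentile 99.4 among all targets, rps27l at 99.5, phlda3 at 98.6, ccng1 at 94.5 and ercc5 at 91.4. In pairs 1 and 2 the percentiles were lower for all of them but ercc5, 84.3 and 86.5 for the mdm2 target OTTDART00000027213, 90.9 and 78.6 for OTTDART00000027215, 91.6 and 79.9 for rps27l, 96.1 and 83.5 for phlda3 and 85.4 and 84.4 for ccng1, against 96.2 and 93.7 for ercc5. Pair 3 placed sesn2, with a difference of -0.40, at percentile 8.77, against 79.3 and 67.6 in pairs 1 and 2, while pmaip1 (0.07) and ei24 (0.02) lay near the middle. The differences of sesn2 were 0.58 and 0.19 in pairs 1 and 2, those of pmaip1 0.88 and -0.38, and those of ei24 0.22 and -0.46, so none of these genes kept 1 direction in every pair.

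**Figure D4:**
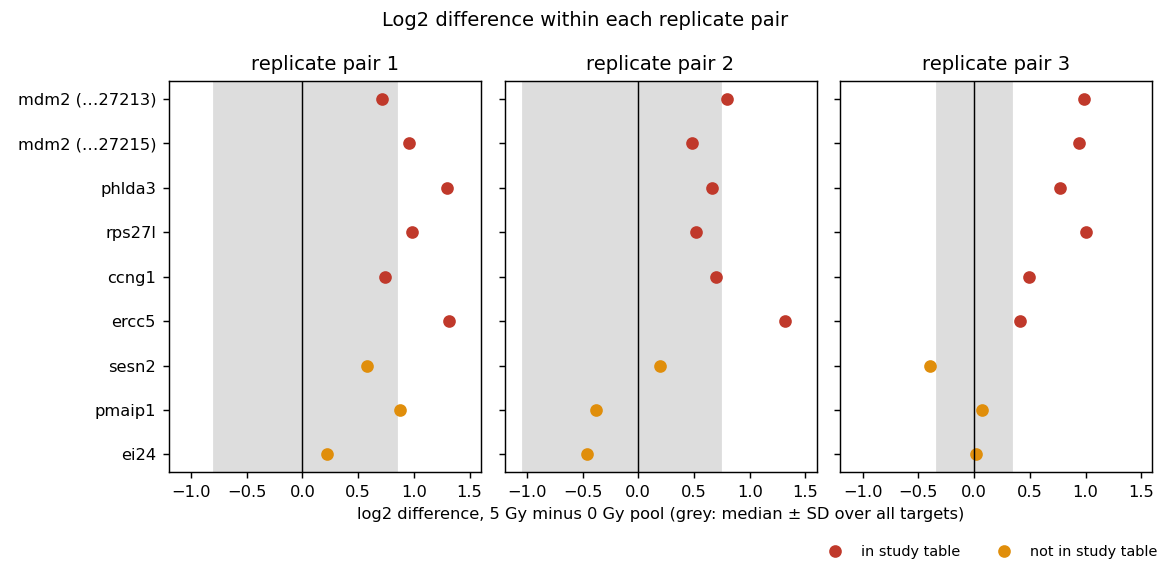
Log2 difference between the 5 Gy pool and the 0 Gy pool of the same replicate number (horizontal axes) for each p53 target in pairs 1, 2 and 3, with red for targets from the study's tables, orange for sesn2, pmaip1 and ei24, and grey for the median ± SD over all targets. The grey band is narrowest in pair 3 (SD 0.335), where the 6 red points lie between 0.41 and 1.00.

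Averaged over the 6 targets from the study's tables, the pools stood at 11.01, 10.75 and 10.95 at 5 Gy and at 10.01, 10.01 and 10.18 in controls. The lowest 5 Gy pool was replicate 2 in 4 of the 6 targets, and the highest control pool was replicate 3 in 3 of them. The pooled SD was below the median over all targets, 0.435, in all 6 of them, where the selection by a test on these pools favours a small spread, and also in sesn2 and ei24. It was above that median in pmaip1, with SDs of 1.25 at 5 Gy and 0.705 in controls.

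Within treatments the members did not vary as a block. After treatment means were removed, the 36 pairs of members had a median correlation of 0.07 across the 6 pools, with a range of -0.89 to 0.92, and 20 of 36 were above 0. The highest were those of phlda3 with pmaip1 (0.92), of the mdm2 target OTTDART00000027215 with phlda3 (0.84), ei24 (0.81) and pmaip1 (0.78), and of ccng1 with rps27l (0.79) and ercc5 (0.78). The lowest were those of the mdm2 target OTTDART00000027213 with ccng1 (-0.89), rps27l (-0.85) and ercc5 (-0.85), and of sesn2 with rps27l (-0.78). These correlations share the same 6 arrays and are given as a description.

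Profiles across all 6 pools were also compared between the mean of the standardised members and the 2663 targets with a current zebrafish symbol. Because 6 of the 9 members were selected by the contrast between treatments, that mean carries the same contrast. The nearest targets are also the highest of 2663 over only 6 pools. Shared regulation with the p53 targets therefore cannot be read from them. The nearest were ube2c, an enzyme of ubiquitin transfer in mitosis (r = 0.984, ratio 0.40), crb3b, of the Crumbs polarity family (0.973, ratio 0.55), zgc:112052 (0.963, ratio 0.52), casq1b, a calcium-binding protein of muscle (0.952, ratio 0.50) and zgc:110425 (0.945, ratio 1.31). In all, 23 named targets had r of at least 0.9. After treatment means were removed the nearest were different targets, tle2c (0.997), pomt2 (0.994), hspb2 (0.993), zgc:112083 (0.992) and thumpd1 (0.992), and 218 reached 0.9.

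Other genes of the p53 pathway were taken from lists arranged by role. Of 136 listed genes, 14 were matched to a target by symbol, 11 of them besides the members. Neither cdkn1a nor mdm4, the gadd45 genes, bax or bbc3 was matched, and these genes were not analysed here. Of the cell cycle arrest list only ccng1 was matched, under its name in the study's table. Only 2663 of the 37157 targets carried a zebrafish symbol, so unmatched genes may be on the array under other identifiers. Of the 11 genes, 0 were called in either direction against a background of 4.04%, and 0 had an unadjusted p under 0.05. The count was also 0 by the methods' t-test, where 1.53% of all targets were called, and with the replicate block, where 8.81% were. Of the 11 genes only xrcc4 is listed by the study. For the others a count of 0 by the methods' t-test was largely fixed in advance, and less so by limma or with the replicate block. Among so few genes a count of 0 says little at these backgrounds. The ratios of the 11 genes had a median of 0.04, with 6 of 11 above 0, where all targets had a median of -0.03 and 46.6% above 0.

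Of the 4 genes of the DNA repair list matched by symbol, which leaves out ercc5, 0 passed. The 5 Gy pools lay above all control pools in xrcc4 and xrcc5 but not in ercc4 or rad52. These were the only 2 of the 11 pathway genes with that order, beside a background of 2.78% of all targets. xrcc4, the partner of the end-joining ligase, had 10.21, 9.75 and 9.60 at 5 Gy and 9.27, 8.88 and 9.42 in controls, a ratio of 0.67 (SE 0.302) that did not pass. It is among the targets that the study lists, so its direction is not independent evidence. xrcc5, which encodes the Ku80 subunit that binds broken ends and is not in that list, had 8.66, 8.47 and 8.46 at 5 Gy and 7.73, 7.46 and 8.43 in controls. Its ratio was 0.65 (SE 0.324, limma adjusted p = 0.905), and 0 Gy replicate 3 lay almost level with the 5 Gy pools. Without that pool the ratios were 0.78 for xrcc4 and 0.93 for xrcc5 and both met the thresholds, but 7.81% of all targets were called higher in that fit. ercc4, a nuclease subunit of excision repair (-0.09), and rad52, of homologous recombination (-0.20), were near 0.

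Among the feedback genes, tp53rk, a kinase known in human cells to phosphorylate p53, had a ratio of 0.62 (SE 0.374) that did not pass. tp53bp1, a protein that gathers at double-strand breaks, had a ratio of 0.04 with a wide SE of 0.509. The ubiquitin ligase gene cop1 was at -0.31 (SE 0.317). In the apoptosis list bmf1, of the same BH3-only family as pmaip1, had a ratio of 0.78 (SE 0.485) and the caspase gene casp6a a ratio of -0.73 (SE 0.457), and neither passed. Without 0 Gy replicate 3 the ratio of bmf1 was 1.27 and it was called, against the same background of 7.81%. casp3b was at 0.11 (SE 0.663). Beside sesn2, the metabolic list held tigara, related to the human gene TIGAR, which lowers glycolysis, at -0.35 (SE 0.289).

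Markers of cell types were read from the same fit. All 6 neuron markers matched by symbol had ratios below 0, with a median of -0.74 and a highest of -0.35. Over all targets 46.6% of ratios were above 0. Of the 6 neuron markers, 2 were called lower, beside a background of 2.89% of all targets. They were the glutamate transporter gene slc17a6a (-1.21), which the study lists, and the glycine transporter gene slc6a5 (-0.88). The mean of the neuron list ran between 9.30 and 10.62 at 5 Gy and between 10.64 and 10.83 in controls. It was lowest in 5 Gy replicate 2, and its shift was uneven. The median differences in replicate pairs 1, 2 and 3 were -0.51, -1.34 and -0.13. Targets that only the study's tables name, gad2 (-1.48 and -1.95) and elavl4 (-0.97), were also called lower, and were selected on these pools. All 4 muscle markers matched by symbol had ratios above 0, with a median of 0.41. Beside a background of 1.15% of all targets, 2 were called higher, pygma (0.67) and smyd1b (0.77). Both are listed by the study, and both calls were lost with the replicate block. The muscle list also holds ttn.1, which was not among the markers matched by symbol. A target that the study names TTN is listed there as lower at 5 Gy, against the direction of the matched markers, and its ratio is not given here. The mean of the muscle list ran between 13.73 and 13.95 at 5 Gy and between 13.36 and 13.65 in controls. Its median differences in pairs 1, 2 and 3 were 0.60, 0.55 and 0.0066, so pair 3 showed next to no shift. Marker values without 0 Gy replicate 3 are not given here. None of 2 proliferation markers, 5 targets of leukocyte markers or 3 erythrocyte markers was called, against a background of 4.04%. A further proliferation marker that only the study's tables name, birc5, was at 0.66 (SE 0.290) and was not called. The leukocyte list lay near the dim limit in both treatments, between 6.74 and 6.86 at 5 Gy and between 6.75 and 6.88 in controls. The part of these shifts in the values of the p53 targets was not tested.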

How the data were processed

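RNA of 6 pools of whole larvae was measured on one-colour arrays. The authors extracted and quantile normalised the signal, and the deposited values are linear intensities of 385000 single probes. RMA is named in the submitters' processing notes, with no version, but a step that combines probes is not part of these values. The background correction is not given in the sources used here. Sequencing depth does not apply, and precision is limited by how many arrays there are. Each of the 6 value columns was used, so 0 were left out.

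Probes were summarised per target on the log2 scale by a median polish with a tolerance of 0.01 and up to 10 iterations. This gave 37157 targets, 21894 of them with 12 probes. All targets were fitted with lmFit and eBayes of limma 3.58.1 in R 4.3.3 (package data.table, version 1.17.8) without covariates. P-values were adjusted over all 37157 targets by the Benjamini-Hochberg method. Exact permutation tests and summaries used Python 3.11.15 with scipy 1.17.1, numpy 2.4.6 and pandas 2.3.3, and plots used matplotlib 3.10.9. The fit was checked on simulated data in which the targets varied independently of each other. Deviations that a pool shares across targets, as seen in 0 Gy replicate 3, were not simulated, so the check does not cover them. Symbols came from RefSeq accessions, which matched 2663 of 3055 targets with such an identifier, and otherwise from the study's tables, of which only names were used.

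Same-numbered pools deviated together from their treatment means in every pair (correlations 0.150, 0.239 and 0.497), so the numbers were taken to pair the pools. Some differently numbered pools did so too. The correlation was 0.166 for 5 Gy replicate 2 with 0 Gy replicate 1, above that of pair 1. It was 0.082 for 5 Gy replicate 1 with 0 Gy replicate 2, and the others between treatments were below 0. Within the controls, 0 Gy replicate 1 and 0 Gy replicate 2 had 0.283, above the values of pairs 1 and 2. Pairs 1 and 2 are thus not set apart by these correlations, and the pairing remains an assumption. The model with the replicate block is reported beside a result whose call it changes. Other alternatives were the mean or median of probes, a filter on the dimmest 25% of targets, median centring or a second quantile normalisation, an intensity trend, array weights, the methods' t-test and the omission of each pool. The genes named are all members, the p53 pathway genes singled out by rule, in each list the called genes or the 2 with the smallest p, further list genes named after their values were seen, and the 5 nearest profiles. The members and the lists were chosen with earlier results of these data known.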

Additional observations from a re-analysis of the deposited data

How the results depend on the processing

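The count of targets called, 1500, moved to 3272 with the replicate block, 10913 with array weights, 569 with the methods' t-test and 341 with its paired form, and ran between 308 and 7126 when 1 pool was left out, the highest count being without 0 Gy replicate 3. Of the 6 targets from the study's tables, 2 to 5 were still called when 1 pool was left out, the lowest count being without 0 Gy replicate 2. The 96 log2 ratios of these 6 targets under 16 alternatives were all above 0 and ran between 0.54 and 1.30, and 22 of them did not meet the thresholds. Apart from omitted pools, these were rps27l by the methods' t-test, ercc5 by its paired form and phlda3 with the median of probes (0.65). The others were the mdm2 target OTTDART00000027213 with array weights (0.58), and ccng1 with the replicate block, the median of probes and the dim filter. For sesn2, pmaip1 and ei24 the count called was 0 under every alternative that gave a value, pmaip1 having none after the filter on dim targets. Their directions were not stable. The ratio of sesn2 was -0.17 with the median of probes, -0.29 with array weights and between -0.086 and 0.45 without 1 pool. That of pmaip1 was -0.33 with array weights and between -0.53 and 0.57 without 1 pool. That of ei24 was 0.11 with the median of probes and between -0.17 and 0.047 without 1 pool. Of the 11 other pathway genes, 1 was called with the median of probes (casp6a, -1.16), where 1461 of all 37157 targets were. With array weights 6 were called, where 10913 of all targets were, so nothing is read from that count. Between 0 and 3 were called without 1 pool. These were tp53rk without 5 Gy replicate 2 (895 of all targets called) and bmf1, xrcc4 and xrcc5 without 0 Gy replicate 3 (7126 of all targets called). The median correlation between members within treatments, 0.07, ran between -0.18 and 0.12 without 1 pool. The replicate block ended the call of ccng1, so 5 of the 6 stayed called, and changed no other call among members or pathway genes. Where 1 pool of a treatment was left out, the model pooled the spread over both treatments. The causes were not tested. No second target of any of these genes was identified besides those of mdm2, so no value is given for other targets of the same genes. The search covered the 2663 targets with a zebrafish symbol and the names in the study's tables, which list altered targets only. Further targets of these genes, also unchanged ones, may be on the array under other identifiers. With 3 pools a treatment, the SE of a ratio was 0.269 to 0.630 for sesn2, pmaip1 and ei24.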
